A study of Homo sapiens with 8 samples.

Results

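The J-domain family, whose human genes carry DNAJ symbols, was described here in C4-2 cells, a castration-resistant subline of the LNCaP prostate cancer line. Members were the table features whose name was DNAJA, DNAJB or DNAJC followed by a number and nothing else. This rule took 43 of 57773 gene features, with 4 in class A, 13 in class B and 26 in class C. RNA came from cells grown in T medium, a low-glucose mix with heat-inactivated serum, antibiotics, biotin, adenine, insulin and apotransferrin. The groups were PBS vehicle for 24 h (3 libraries), 5 mM metformin for 24 h (3 libraries) and 1 mM phenformin for 24 h (2 libraries). Metformin and phenformin are biguanides, and phenformin carries a phenethyl group where metformin carries methyl groups. Their doses differed, so a contrast between them compares these exposures and not the compounds at a matched dose. The phenformin group rests on the sample titles and conditions, since the treatment text of the labels names only PBS and metformin.

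A J domain is a short helical module that docks onto an HSP70 chaperone and makes it hydrolyse ATP, which locks HSP70 onto its client protein. Class A and class B proteins also bind clients themselves. Class C proteins share little but the J domain, and some of them work at fixed sites such as an import channel, a ribosome or a vesicle. Each compartment has its own pairing, with HSPA8 and inducible HSP70 in the cytosol, BiP (HSPA5) in the lumen of the endoplasmic reticulum and mortalin (HSPA9) in mitochondria. By textbook location, 15 members were assigned to the cytosol and nucleus, 10 to the endoplasmic reticulum, 5 to mitochondria, 3 to vesicles and endosomes, 2 to the ribosome and 1 to cilia and flagella, and 7 were not assigned.

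Values are RPKM, reads scaled to the exon length of the gene and to the mapped reads of the library. Rankings and sums across genes therefore depend on the exon length used, which may differ from that of the transcripts expressed. In PBS replicate 1, DNAJC10 had 9662 reads over a recovered length of 21586 bases, against 7682 over 2730 for DNAJA1. Depth was 13837455 to 15898491 reads in 7 libraries and 44774670 in PBS replicate 1. Over 4037 genes, PBS replicate 1 differed from the sum of PBS replicates 2 and 3 by 0.482 times the counting noise of independent libraries, against 1.5 to 1.66 times for the same check in the metformin group. Its reads may include those of the other PBS libraries, so calls were also made without it. Mitochondrially encoded mRNA made up 23.3% to 24.8% of the summed RPKM with PBS, against 12.7% to 13.6% with metformin and 4.6% to 4.8% with phenformin, and its part in the results was not tested. All 9 prostate luminal markers were expressed, and their summed RPKM was 1310 to 1470 with PBS, against 488 to 539 with metformin and 636 to 662 with phenformin. Of the markers of other cells, 1 of 4 basal, 1 of 6 neuroendocrine, 2 of 4 stromal, 0 of 3 immune and 0 of 2 endothelial genes reached 1 RPKM in any library. The summed stromal markers were 4.97 to 5.58 with PBS, against 9.21 to 10.9 with metformin and 7.57 to 7.76 with phenformin. Of these, VIM was 3.67 to 4.24, 7.99 to 9.51 and 4.93 to 5.05 RPKM in the 3 groups, COL1A1 was 1.16 to 1.32, 1.15 to 1.36 and 2.52 to 2.82, and COL1A2 and DCN were at or under 0.105 in every library. The part of the luminal and stromal markers in the results was not tested. In bulk RNA, fewer cells of a type and less RNA per cell cannot be told apart. The labels do not say whether replicates were separate cultures, and the spread behind each p-value may be technical.

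With PBS, 35 members had a mean of at least 1 RPKM. The 5 highest were DNAJA1, DNAJC8, DNAJB9, DNAJC3 and DNAJB11. Over the 36 members that passed the expression limit (1 RPKM or more in 3 or more of the 6 PBS and metformin libraries for the metformin comparison, and in 2 or more of all 8 libraries for the others), the median of the PBS means was 9.24 RPKM and the median coefficient of variation between PBS libraries was 3.9%. The 7 members below the limit were DNAJA4, DNAJB13, DNAJB3, DNAJB7, DNAJB8, DNAJC15 and DNAJC6. DNAJC6, auxilin, a neuronal factor that uncoats clathrin vesicles, was the highest of them at no more than 0.837 RPKM, and DNAJB3, a testis gene, was listed at 0 in every library. DNAJA4, DNAJB7, DNAJB8, DNAJB13 and DNAJC15 each stayed at or under 0.104 RPKM. DNAJB4, DNAJC18 and DNAJC28 passed the limit for the metformin comparison through 1 group alone, which was metformin for DNAJB4 and PBS for DNAJC18 and DNAJC28. In the fit of all 8 libraries, DNAJC18 and DNAJC28 again passed through PBS alone, and DNAJB4 passed only with treated libraries counted. The plot of levels shows all tested members.

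**Figure D1:**
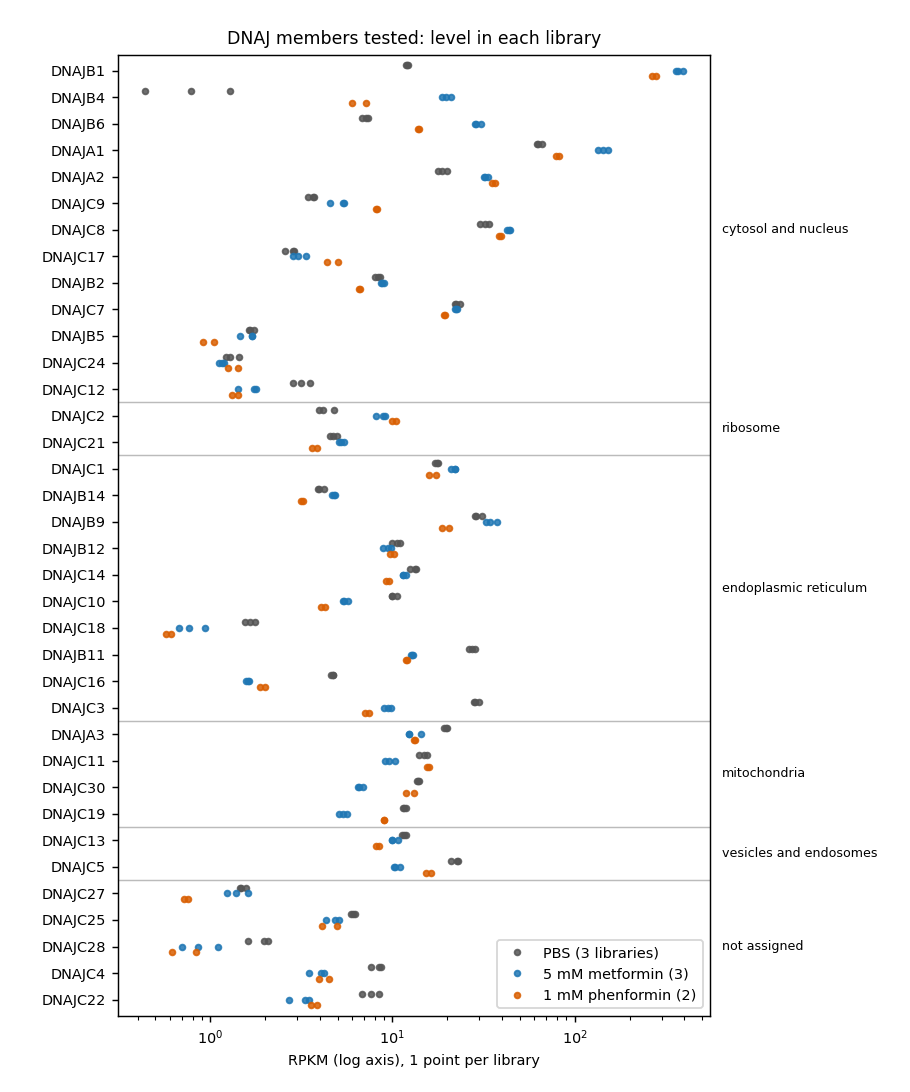
RPKM of the 36 tested members on a log axis, 1 point per library, coloured by group and ordered by compartment and by the change with metformin. DNAJB1 moves from about 12 RPKM with PBS to between 361 and 393 with metformin and 267 and 279 with phenformin, and DNAJC3 from 28 to 29.8 with PBS to under 10 in every treated library.

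With metformin, 11 of the 36 tested members rose, 18 fell and 7 did not pass limma, with p-values adjusted by Benjamini-Hochberg across the 11730 genes of the fit. Most expressed genes were called in this comparison (82.9%, with 28.2% higher and 54.8% lower), so the number of members called is near the background. The median change of members was -0.16 on the log2(RPKM + 0.1) scale, beside -0.30 over all genes tested. Relative to the median gene, each change printed here is thus 0.30 higher for metformin, 0.15 higher for phenformin and 0.13 lower for the contrast of the treatments. After the library medians were set equal, 15 members were higher and 15 lower, beside 36.1% and 46.2% of all genes. With a change of at least 2-fold, 5 members rose and 9 fell, beside 8.45% and 22.4% of all genes. By class, 2 of 3 members of class A, 5 of 9 of class B and 4 of 24 of class C rose, and 1, 2 and 15 fell. Without PBS replicate 1, 26 members were called in place of 29, since DNAJB12 and DNAJC14 no longer passed and DNAJC18 fell under the expression limit.

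With phenformin, 9 of the 36 tested members rose, 22 fell and 5 did not pass limma. Over all 12172 genes of this fit, 76.5% were called, 31.2% higher and 45.4% lower. The median change of members was -0.36, beside -0.15 over all genes. After the library medians were set equal, 10 were higher and 22 lower, beside 35.6% and 41.2% of all genes. With a change of at least 2-fold, 4 rose and 8 fell, beside 7.73% and 16.6%. Here 2 of 3 members of class A, 3 of 9 of class B and 4 of 24 of class C rose, and 1, 5 and 16 fell. The same 8 members rose with both treatments, namely DNAJA1, DNAJA2, DNAJB1, DNAJB4, DNAJB6, DNAJC2, DNAJC8 and DNAJC9, and 15 fell with both. The shares of all genes that rose or fell with both were not counted, so whether these counts differ from the background is not known. Both comparisons use the same PBS libraries, so this overlap is not independent evidence. DNAJB9 and DNAJB14 rose with metformin and fell with phenformin, a pattern that 6.56% of all genes had. In the direct contrast of phenformin with metformin, 8 members were higher and 17 lower, beside 39.5% and 25.6% of all genes (65.1% called). Without PBS replicate 1, 31 calls were made for phenformin against PBS and 24 for the contrast. The median over members was -0.23 in that contrast and 0.13 over all genes. With the library medians set equal, 6 were higher and 20 lower, beside 33.2% and 31.9%. By at least 2-fold, 0 members were higher and 2 lower, beside 6.5% and 2.64%.

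**Figure D2:**
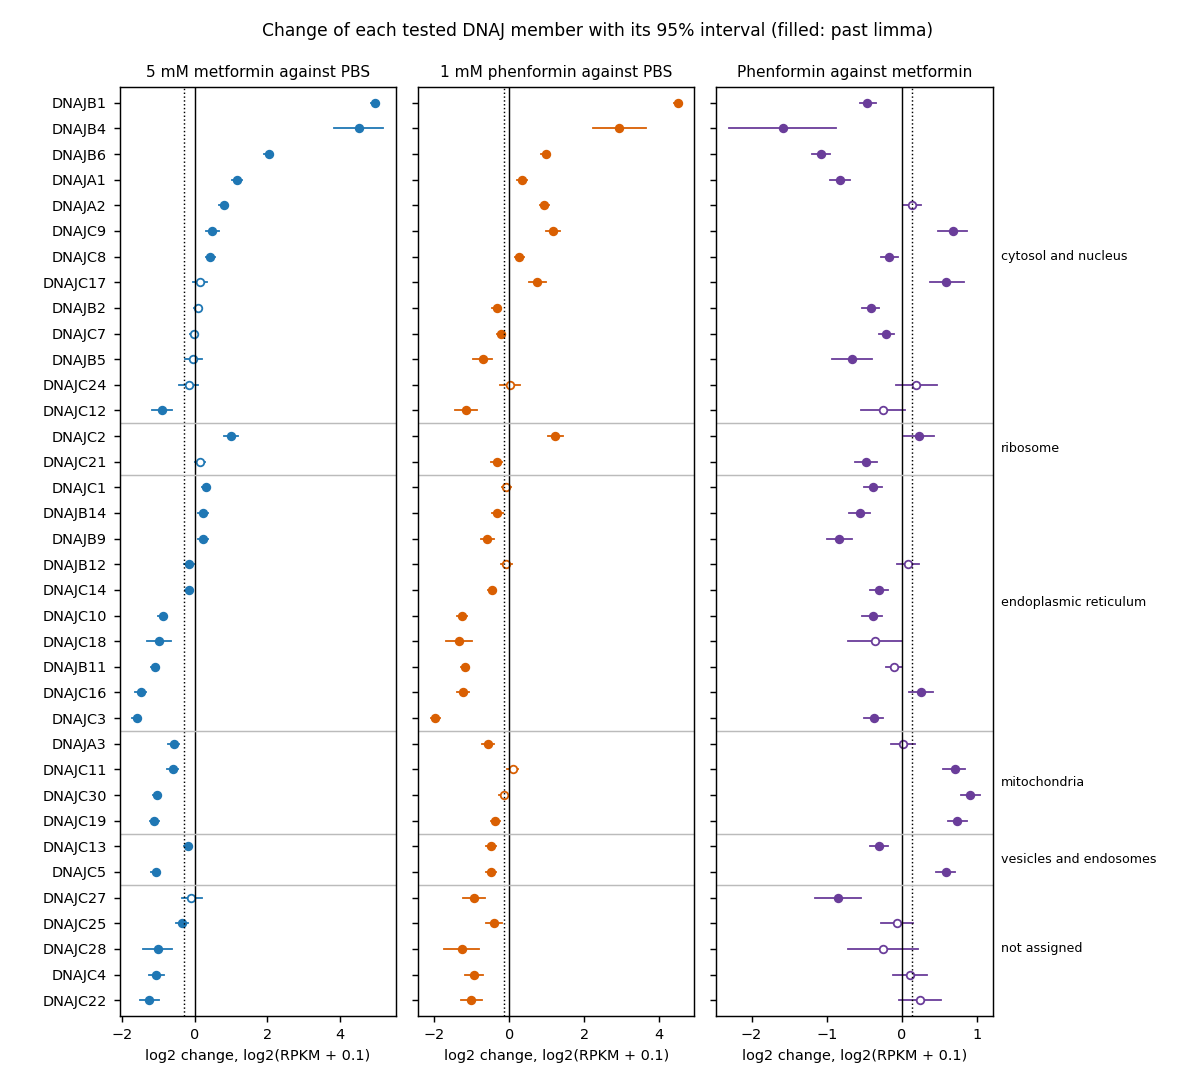
Log2 change on the log2(RPKM + 0.1) scale of each tested member with its 95% interval in the 3 comparisons, grouped by compartment. Filled points passed limma at an adjusted p of 0.05, open points did not, and the dotted line is the median over all genes, at -0.30, -0.15 and 0.13.

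In the cytosol and nucleus, 7 of 13 tested members rose with metformin and 1 fell, with a median change of 0.43. With phenformin 8 rose and 4 fell, with a median of 0.34. The shares of all genes were 28.2% higher and 54.8% lower with metformin, and 31.2% and 45.4% with phenformin. DNAJB1 and DNAJB4 had the highest changes with both treatments. DNAJB1, the stress-inducible HSP40, stood at 12.2, 12 and 11.9 RPKM in PBS replicates 1 to 3, at 393, 361 and 371 with metformin and at 267 and 279 with phenformin. Every treated library lay far above every PBS library, and the metformin and phenformin libraries did not overlap. The rise was 31.2-fold with metformin (log2 change 4.95, SE 0.04, limma adjusted p = 1.6e-09) and 22.7-fold with phenformin (4.50, SE 0.05, limma adjusted p = 3.8e-10). It ranked 14 of 11730 genes by change with metformin and 15 of 12172 with phenformin. The contrast of phenformin with metformin was -0.46 (SE 0.05, limma adjusted p = 6.0e-05). DNAJB1 alone made up 2.6% to 2.68% of the summed RPKM of the family with PBS, against 42.2% to 42.8% with metformin and 40.1% to 40.4% with phenformin.

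Stress-inducible chaperone genes are known to be driven by heat shock factor 1, which binds inverted repeats of the unit GAA. The promoters of the refolding partners DNAJB1, DNAJB6 and DNAJA1 are shown. They were chosen because these members rose with both treatments and their windows hold such repeats, so this agreement was fixed by the choice. A part of heat shock factor 1 in these rises was not tested. DNAJB1 has other annotated promoters that are not shown. Sequences are from RefSeq (GRCh38.p14), read 5′ to 3′ on the strand of the gene, and capitals mark the repeats. The DNAJB1 stretch is chr19:14518398-14518517 on the minus strand and holds 2 separate copies of the 2-unit core GAANNTTC, from -77 to -70 and from -47 to -40, counting the annotated start as 0. The DNAJB6 stretch is chr7:157336824-157336943 on the plus strand, with the 3-unit form GAANNTTCNNGAA from -131 to -119. The DNAJA1 stretch is chr9:33025266-33025295 on the plus strand, with the 3-unit form from 3 to 15, just past the annotated start.
DNAJB1: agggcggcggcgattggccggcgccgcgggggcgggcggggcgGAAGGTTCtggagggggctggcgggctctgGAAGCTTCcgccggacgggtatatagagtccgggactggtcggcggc
DNAJB6: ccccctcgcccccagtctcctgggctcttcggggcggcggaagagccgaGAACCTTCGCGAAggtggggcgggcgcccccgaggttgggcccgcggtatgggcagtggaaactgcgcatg
DNAJA1: gcgccgggcgGAACTTTCCAGAAcgctcgg

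Windows of 300 bases, from 250 before to 50 after an annotated start, were searched on both strands for 39 matched members (51 promoters) and for all 35116 promoters. The 3-unit form occurred in 0.49% of all promoters and, among members, in those of DNAJA1 and DNAJB6. The 2-unit core, which is part of the 3-unit form, occurred in 6.77% of all promoters and in those of 6 members, DNAJA1, DNAJA4, DNAJB1, DNAJB6, DNAJB7 and DNAJC6. Of these 6, DNAJA4, DNAJB7 and DNAJC6 were too low to test. The endoplasmic reticulum stress element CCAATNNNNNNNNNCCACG was in 0.0769% of all promoters and in 0 of the members matched. The letters TGACGTGG, bound by XBP1 and ATF6, were in 0.729% of all promoters and in that of DNAJC10. Of the 8 members that rose with both treatments, only DNAJA1, DNAJB1 and DNAJB6 had a match to either heat shock form. No match was found for DNAJA2, DNAJB4, DNAJC2, DNAJC8 and DNAJC9. The other order of 2 units, TTCNNGAA, was not searched on its own. A match of letters is a description and not a binding site.

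DNAJB4, a close relative of DNAJB1, had 0.785, 0.439 and 1.28 RPKM with PBS, 21, 19.7 and 18.8 with metformin and 7.14 and 6.01 with phenformin. The PBS values rest on 133, 23 and 74 reads and spread by 50.7% of their mean, the most of any tested member, but lie far under the treated libraries. It rose by 4.51 with metformin (SE 0.29, limma adjusted p = 2.5e-06) and by 2.93 with phenformin (SE 0.31, limma adjusted p = 3.4e-05). With PBS it reached 1 RPKM in replicate 3 alone, so it passed the expression limit only with treated libraries counted. These p-values thus follow a choice by high treated levels and are not independent support. The phenformin libraries lay 3.02-fold under the metformin libraries, and the contrast was -1.58 (SE 0.31, limma adjusted p = 0.00215).

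DNAJB6, which keeps polyglutamine proteins from aggregating, had 7.11, 6.79 and 7.3 RPKM with PBS, 30.7, 28.8 and 28.4 with metformin and 13.9 in both phenformin libraries. The 3 groups were fully separate. It rose 4.14-fold with metformin (2.04, SE 0.05, limma adjusted p = 3.5e-08) and 1.97-fold with phenformin (0.97, SE 0.05, limma adjusted p = 6.2e-07). With DNAJB4 it was 1 of 2 members at least 2-fold lower with phenformin than with metformin (-1.07, SE 0.05, limma adjusted p = 2.2e-06).

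DNAJA1, a farnesylated partner of HSP70, was the most abundant member with PBS at 62.8, 66.1 and 61.8 RPKM, and had 151, 134 and 143 with metformin and 79.1 and 82.2 with phenformin. The rise was 1.16 with metformin (SE 0.06, limma adjusted p = 5.6e-07) and 0.34 with phenformin (SE 0.06, limma adjusted p = 6.1e-04). DNAJA2, its paralogue, differed from that order. DNAJA2 had 18.6, 17.8 and 19.8 RPKM with PBS, 33.5, 31.9 and 32.3 with metformin and 35 and 36.5 with phenformin. It rose by 0.80 with metformin (SE 0.05, limma adjusted p = 2.7e-06) and by 0.93 with phenformin (SE 0.05, limma adjusted p = 9.0e-07). The contrast of phenformin with metformin was 0.13 for DNAJA2 (95% interval 0.01 to 0.26, limma adjusted p = 0.0588) and -0.82 for DNAJA1 (SE 0.06, limma adjusted p = 8.9e-06).

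Nuclear members had the other order or a small rise. DNAJC9, a histone chaperone that recruits HSP70, had 3.68, 3.42 and 3.71 RPKM with PBS, 4.56, 5.44 and 5.32 with metformin and 8.23 and 8.15 with phenformin. It rose by 0.49 with metformin (SE 0.08, limma adjusted p = 6.8e-04) and by 1.16 with phenformin (SE 0.08, limma adjusted p = 3.1e-06), and phenformin was the higher treatment (0.68, SE 0.08, limma adjusted p = 1.6e-04). DNAJC17, a nuclear protein with an RNA recognition motif, ranged from 2.58 to 2.9 RPKM with PBS, from 2.85 to 3.37 with metformin and from 4.38 to 5.04 with phenformin, and rose with phenformin (0.74, SE 0.10, limma adjusted p = 1.3e-04), while its change with metformin was 0.15 (limma adjusted p = 0.145). Its phenformin level was also above the metformin level (0.59, SE 0.10, limma adjusted p = 7.9e-04). DNAJC8, found with spliceosomes, had 32.4, 30.4 and 33.7 RPKM with PBS, 44.1, 43.6 and 42.6 with metformin and 38.2 and 39.2 with phenformin. Its rises were 0.43 (SE 0.05, limma adjusted p = 6.3e-05) and 0.27 (SE 0.05, limma adjusted p = 0.00112).

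The remaining cytosolic members fell or did not pass the test. DNAJC12, a co-chaperone of aromatic amino acid hydroxylases, had 3.13, 2.83 and 3.53 RPKM with PBS, 1.78, 1.43 and 1.73 with metformin and 1.31 and 1.42 with phenformin. It was the 1 cytosolic member that fell with metformin (-0.90, SE 0.12, limma adjusted p = 1.4e-04), and it fell with phenformin too (-1.15, SE 0.13, limma adjusted p = 4.4e-05). DNAJC7, which binds both HSP70 and HSP90, DNAJB2, which leads ubiquitinated clients to the proteasome, and DNAJB5, a relative of DNAJB1, changed by -0.02, 0.08 and -0.04 with metformin and did not pass. All 3 fell with phenformin, by 0.23, 0.33 and 0.71 on the log2 scale. DNAJC7 was at 22.1 to 23.4, 22 to 22.5 and 19.2 to 19.3 RPKM with PBS, metformin and phenformin. DNAJB2 was at 8.02 to 8.59, 8.7 to 9.03 and 6.55 to 6.64 RPKM in that order, and DNAJB5 at 1.62 to 1.73, 1.46 to 1.7 and 0.918 to 1.05. DNAJC24, a factor of diphthamide synthesis, passed in neither comparison, with changes of -0.17 and 0.02 and levels of 1.22 to 1.44, 1.12 to 1.19 and 1.25 to 1.42 RPKM in the same order.

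**Figure D3:**
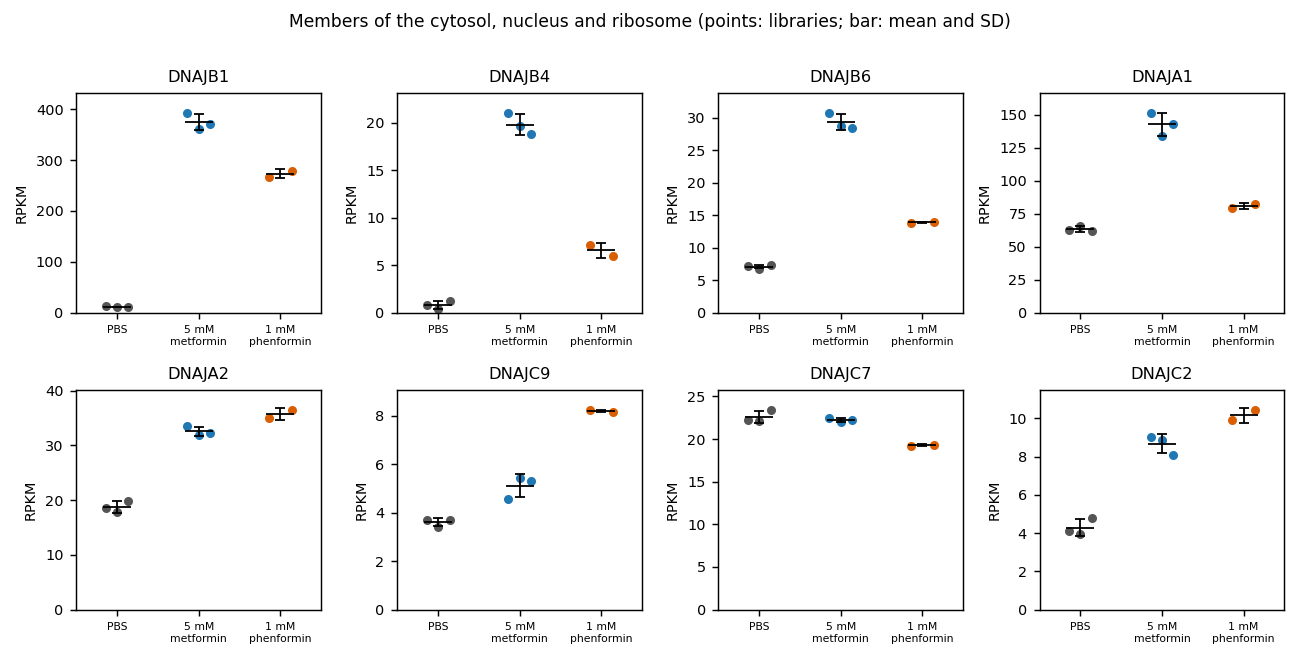
RPKM in each library for 8 members of the cytosol, nucleus and ribosome, each on its own axis from 0, with bars for the mean and SD of each group. DNAJB1, DNAJB4, DNAJB6 and DNAJA1 are highest with metformin, whereas DNAJC9 is highest with phenformin at 8.23 and 8.15 RPKM.

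The cytosolic partners that these proteins work with were read from a list of HSP70 genes and one of nucleotide exchange factors, which release ADP from HSP70. Of 5 tested cytosolic HSP70 genes, 4 rose and 1 fell with metformin, and 3 rose and 1 fell with phenformin, beside the shares of all genes above. HSPA6, among the genes that rose, passed the expression limit through the metformin libraries alone, and HSPA1L, which fell, through the PBS libraries alone. HSPA1B, inducible HSP70, had 58 to 68.3 RPKM with PBS, against 1393 to 1509 with metformin and 2212 to 2369.8 with phenformin. HSPA1B and HSPA1A are near-identical copies, so their split of reads is uncertain. HSPA8, the constitutive HSP70, had 394 to 402 RPKM with PBS, rose to between 679 and 728 with metformin (0.81, limma adjusted p = 1.9e-06) and stood at 377 and 378 with phenformin (-0.08, limma adjusted p = 0.175). Of 8 tested exchange factors, 6 rose and 1 fell with metformin and 5 rose and 1 fell with phenformin, beside the same shares of all genes. HSPH1 and BAG3 rose by 2.76 and 2.46 with metformin and by 1.09 and 1.10 with phenformin. Among the heat shock factors, HSF1 rose by 0.31 and 0.74 with the 2 treatments, HSF2 changed by 0.50 (limma adjusted p = 0.00023) and 0.14 (limma adjusted p = 0.16), and HSF4 fell by 2.17 and 0.58.

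At the ribosome, DNAJC2, the J protein of the complex that receives nascent chains, had 4.13, 3.96 and 4.78 RPKM with PBS, 9.05, 8.87 and 8.11 with metformin and 9.9 and 10.4 with phenformin. All treated libraries lay above all PBS libraries. The rise was 1.00 with metformin (SE 0.08, limma adjusted p = 1.0e-05) and 1.23 with phenformin (SE 0.09, limma adjusted p = 2.8e-06). DNAJC21, which helps to mature the large ribosomal subunit, changed by 0.15 with metformin (limma adjusted p = 0.0525) and fell by 0.34 with phenformin (limma adjusted p = 0.00137). Its level was 4.53 to 4.94 RPKM with PBS, 5.09 to 5.43 with metformin and 3.6 and 3.84 with phenformin.

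In the endoplasmic reticulum, 3 of 10 members rose and 7 fell with metformin, with a median change of -0.52. Among all genes 28.2% rose and 54.8% fell, and with the library medians set equal the counts were 3 and 5 beside 36.1% and 46.2%, so the metformin counts are near the background. With phenformin 0 rose and 8 fell, beside 31.2% and 45.4% of all genes, with a median of -0.88. DNAJC3, DNAJB11 and DNAJC10 fell with both treatments. DNAJC3, p58IPK, a lumenal partner of BiP, had 28, 28.4 and 29.8 RPKM with PBS, 9, 9.43 and 9.76 with metformin and 7.46 and 7.03 with phenformin. The 3 groups did not overlap. It fell 3.06-fold with metformin (-1.60, SE 0.05, limma adjusted p = 8.6e-08) and 3.97-fold with phenformin (-1.97, SE 0.05, limma adjusted p = 2.0e-08), the deepest fall among the tested members in both comparisons. The antisense gene DNAJC3-AS1 fell too (-2.21 and -1.87). The sources used here do not say whether strand was used in counting, so reads from any bases that both genes share could be assigned to either. Whether their exons overlap was not checked.

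DNAJB11, ERdj3, had 27.2, 26.3 and 28.2 RPKM with PBS, 12.6, 13 and 12.8 with metformin and 12 and 11.9 with phenformin. It fell by 1.08 with metformin (SE 0.04, limma adjusted p = 2.8e-07) and by 1.18 with phenformin (SE 0.05, limma adjusted p = 1.0e-07). DNAJC10, ERdj5, a disulfide reductase that prepares misfolded proteins for degradation, had 10, 9.92 and 10.6 RPKM with PBS, 5.42, 5.67 and 5.38 with metformin and 4.04 and 4.27 with phenformin. It fell by 0.88 (SE 0.05, limma adjusted p = 1.8e-06) and by 1.27 (SE 0.06, limma adjusted p = 2.3e-07). Phenformin libraries were the lower ones for DNAJC10 (-0.39, SE 0.06, limma adjusted p = 4.0e-04), while for DNAJB11 the contrast was -0.10 (95% interval -0.21 to 0.00, limma adjusted p = 0.079).

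DNAJC16, a membrane protein, had 4.62, 4.73 and 4.72 RPKM with PBS, 1.62, 1.56 and 1.63 with metformin and 2 and 1.88 with phenformin. It fell by 1.49 (SE 0.07, limma adjusted p = 3.8e-07) and by 1.23 (SE 0.07, limma adjusted p = 9.0e-07). DNAJC18, a relative of DNAJB12 and DNAJB14, had 1.65, 1.77 and 1.54 RPKM with PBS, 0.671, 0.765 and 0.934 with metformin and 0.611 and 0.569 with phenformin. It fell by 0.99 (SE 0.14, limma adjusted p = 2.3e-04) and by 1.35 (SE 0.16, limma adjusted p = 5.8e-05). It passed the expression limit through the PBS libraries alone.

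DNAJB9 and DNAJB14 went in opposite directions. DNAJB9, ERdj4, which binds BiP and restrains the stress sensor IRE1, had 28.8, 28.4 and 30.8 RPKM with PBS, 37.4, 34.3 and 32.6 with metformin and 18.6 and 20.4 with phenformin. The metformin libraries all lay above and the phenformin libraries all below those with PBS. The rise with metformin was small (0.24, SE 0.06, limma adjusted p = 0.00659) and the fall with phenformin larger (-0.59, SE 0.07, limma adjusted p = 7.2e-05), and the direct contrast was -0.83 (SE 0.07, limma adjusted p = 2.1e-05). DNAJB14, a membrane protein that works with DNAJB12 in degradation from the reticulum, had 3.96, 3.92 and 4.19 RPKM with PBS, 4.8, 4.83 and 4.64 with metformin and 3.16 and 3.23 with phenformin. Its changes were 0.24 (SE 0.06, limma adjusted p = 0.00574) and -0.32 (SE 0.06, limma adjusted p = 0.00119), and the contrast was -0.56 (SE 0.06, limma adjusted p = 7.9e-05).

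DNAJC1, ERdj1, which binds ribosomes at the membrane, ranged from 17.1 to 17.8 RPKM with PBS and from 21 to 22.1 with metformin, a rise of 0.31 (SE 0.04, limma adjusted p = 2.2e-04), and had 15.8 and 17.4 with phenformin (-0.08, limma adjusted p = 0.217). DNAJC14 and DNAJB12 had small falls with metformin, by 0.17 and 0.16, that were no longer seen once the library medians were set equal (0.02 and 0.03). DNAJC14 also fell with phenformin, by 0.47 on the log2 scale, and DNAJB12 did not pass. In the PBS, metformin and phenformin libraries, DNAJC14 was at 12.5 to 13.4, 11.4 to 11.9 and 9.2 to 9.61 RPKM and DNAJB12 at 9.89 to 11, 8.84 to 9.84 and 9.63 to 10.2. Of 4 HSP70 partners in this compartment, 3 fell with metformin, beside 54.8% of all genes, and 4 fell with phenformin, beside 45.4%. HSPA5 (BiP) had 378 to 442 RPKM with PBS, 376 to 406 with metformin (-0.08, limma adjusted p = 0.286) and 138 and 139 with phenformin (-1.56, limma adjusted p = 2.0e-07). HYOU1, an exchange factor of BiP, fell by 1.04 and 1.49.

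In mitochondria, all 4 tested members fell with metformin, beside 54.8% of all genes, and 2 fell with phenformin, beside 45.4%, which is near the background. The median changes were -0.83 and -0.26. With the library medians set equal, 4 were lower with metformin, beside 46.2% of all genes. With phenformin 1 was then higher and 2 lower, beside 35.6% and 41.2%. In the direct contrast 3 of the 4 were higher with phenformin, beside 39.5% of all genes, and the median was 0.72, beside 0.13 over all genes. DNAJC19, of the motor that draws proteins into the matrix, had 11.9, 11.5 and 11.6 RPKM with PBS, 5.35, 5.09 and 5.61 with metformin and 8.96 and 8.93 with phenformin. The phenformin libraries lay between the other groups. DNAJC19 fell by 1.11 with metformin (SE 0.05, limma adjusted p = 6.3e-07) and by 0.38 with phenformin (SE 0.05, limma adjusted p = 2.3e-04), and differed between the treatments by 0.73 (SE 0.05, limma adjusted p = 1.1e-05).

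DNAJC30, an inner membrane protein, had 13.8, 13.6 and 13.9 RPKM with PBS, 6.89, 6.56 and 6.45 with metformin and 11.9 and 13.1 with phenformin. It fell by 1.04 with metformin (SE 0.05, limma adjusted p = 4.7e-07). With phenformin both libraries lay below every PBS library, but the change of -0.14 (SE 0.06, limma adjusted p = 0.0537) did not pass, and the direct contrast of 0.91 (SE 0.06, limma adjusted p = 5.4e-06) was the highest of any tested member. DNAJC11, which binds the complex that shapes cristae, ranged from 14 to 15.4 RPKM with PBS, from 9.15 to 10.3 with metformin and from 15.5 to 15.9 with phenformin. It fell with metformin (-0.61, SE 0.06, limma adjusted p = 3.0e-05), changed by 0.09 with phenformin (limma adjusted p = 0.226), and the contrast was 0.70 (SE 0.06, limma adjusted p = 2.7e-05). DNAJA3, the mitochondrial class A partner of mortalin, was at 19.1 to 19.8 RPKM with PBS, at 12.3 to 14.4 with metformin and at 13.2 in both phenformin libraries. It fell by a like amount with each, by 0.58 and 0.56 (both SE 0.07), and the contrast was 0.02 with a 95% interval from -0.14 to 0.18. Of 3 mitochondrial partners of HSP70, 2 rose and 1 fell with metformin, beside 28.2% and 54.8% of all genes. With phenformin 2 rose, beside 31.2%. Mortalin itself (HSPA9) rose with both treatments, from between 99.9 and 113 RPKM with PBS to between 223 and 237 with metformin and 146 and 149 with phenformin. Of its exchange factors, GRPEL2 rose by 1.04 and 1.19, while GRPEL1 fell by 0.49 with metformin (limma adjusted p = 0.00115) and changed by -0.23 with phenformin (limma adjusted p = 0.0571).

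**Figure D4:**
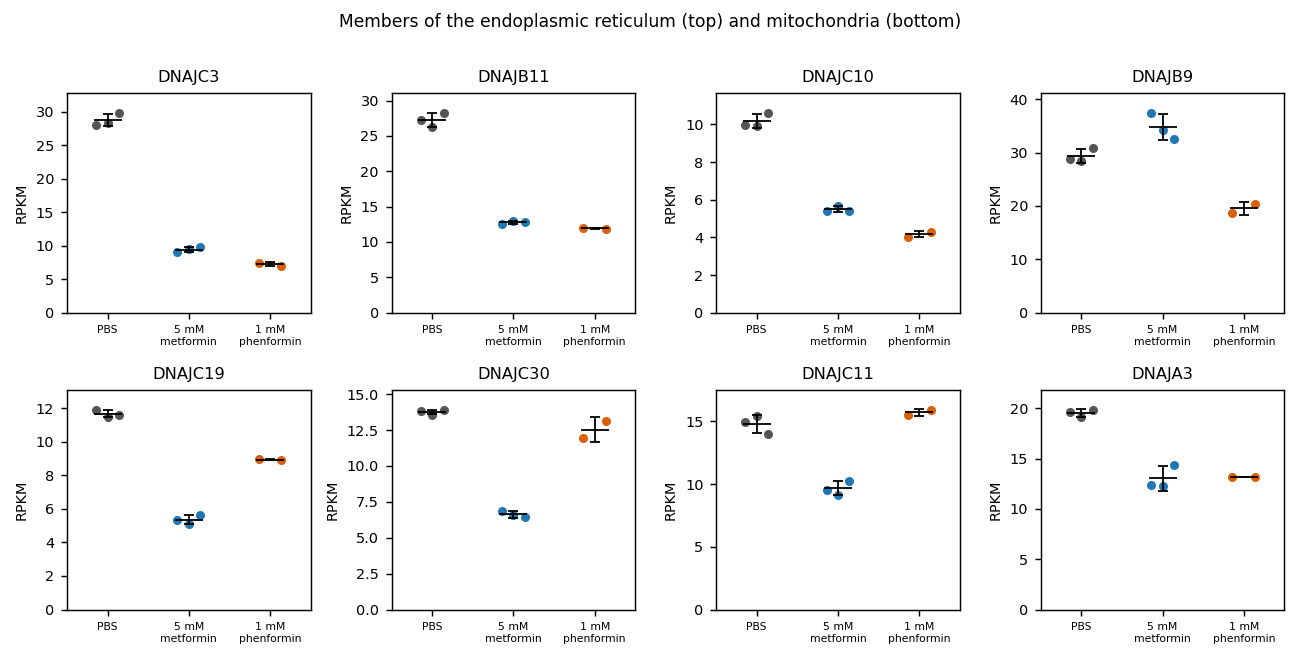
RPKM in each library for 4 members of the endoplasmic reticulum (top) and 4 of mitochondria (bottom), each on its own axis from 0, with bars for the mean and SD of each group. DNAJB9 is above PBS with metformin and below it with phenformin, and DNAJC30 and DNAJC11 are lowest with metformin.

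Of the vesicle members, DNAJC5, the cysteine string protein of secretory vesicles, had 22.9, 22.5 and 21.1 RPKM with PBS, 10.9, 10.4 and 10.2 with metformin and 15.3 and 16.2 with phenformin. It fell by 1.07 (SE 0.05, limma adjusted p = 6.3e-07) and by 0.49 (SE 0.06, limma adjusted p = 5.1e-05), and phenformin was the higher treatment (0.58, SE 0.06, limma adjusted p = 4.2e-05). DNAJC13, an endosomal sorting protein, fell by 0.18 with metformin, a change of 0.01 after the library medians were set equal, and by 0.48 with phenformin. It was at 11.2 to 11.9, 9.89 to 10.7 and 8.09 to 8.39 RPKM in the PBS, metformin and phenformin libraries.

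The 5 tested members without an assigned compartment are of class C and little studied. DNAJC22 had 7.64, 8.4 and 6.79 RPKM with PBS, 3.29, 2.7 and 3.47 with metformin and 3.59 and 3.86 with phenformin. DNAJC4 had 8.7, 8.42 and 7.61 RPKM with PBS, 4.22, 3.47 and 4.07 with metformin and 3.95 and 4.51 with phenformin. DNAJC28 had 1.97, 1.61 and 2.08 RPKM with PBS, 1.1, 0.699 and 0.859 with metformin and 0.833 and 0.616 with phenformin. In these 3 every treated library lay below every PBS library. The share of all genes with such separate groups was not counted, here or for the members above. With metformin they fell by 1.25, 1.06 and 1.02, and with phenformin by 1.01, 0.95 and 1.27. DNAJC28 passed the expression limit through the PBS libraries alone in both fits, and its treated values rest on 17 to 32 reads. DNAJC27, a Rab-like GTPase, ranged from 1.46 to 1.57 RPKM with PBS and from 1.24 to 1.62 with metformin (-0.09, SE 0.12, limma adjusted p = 0.5), and had 0.717 and 0.755 with phenformin (-0.94, SE 0.13, limma adjusted p = 1.9e-04). DNAJC25, at 5.94 to 6.2 RPKM with PBS, 4.31 to 5.08 with metformin and 4.11 and 4.97 with phenformin, fell by 0.35 and 0.42. Its change with metformin was near that of the median gene, and was -0.16 with the library medians set equal (limma adjusted p = 0.0436). It shares its locus with a read-through gene, DNAJC25-GNG10, so its reads are uncertain.

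Summed over the 43 members, the level was 450.8 to 456.1 RPKM with PBS, against 854.6 to 916.3 with metformin and 665.5 to 690.5 with phenformin. DNAJB1 alone made most of the metformin rise and more than all of the phenformin rise. It stood at 11.9 to 12.2 RPKM in PBS libraries, 361 to 393 in metformin ones and 267 to 279 in phenformin ones. Without DNAJB1, the members together were higher in metformin libraries but lower in phenformin libraries than in PBS libraries. Members of the cytosol and nucleus, DNAJB1 included, summed to 175.9 to 180.1 RPKM in PBS libraries. Their sum was 662 to 716.7 in metformin libraries and 482.3 to 499.7 in phenformin libraries. The 10 members of the endoplasmic reticulum went from between 145.5 and 149.4 RPKM with PBS to between 110.9 and 114.5 with metformin and 82.92 to 86.1 with phenformin. The 5 mitochondrial members went from between 59.37 and 60.3 with PBS to between 33.12 and 36.74 with metformin and 49.62 to 51.17 with phenformin. Of this sum, class B held 21.9% to 22.6% of the summed RPKM with PBS, against 55.7% to 56.6% with metformin and 50.9% to 51% with phenformin, whereas class C held 55.1% to 55.4%, 21.9% to 22.9% and 29.9% to 30%. Without DNAJB1, the summed RPKM of class B was 86.8 to 91.4 with PBS, against 118 to 126 with metformin and 72 to 73.3 with phenformin. Of the J proteins without a DNAJ symbol, GAK rose by 0.16 and 0.83 with metformin and phenformin, HSCB fell by 1.03 and 0.59, and SEC63 fell by 0.79 and 0.88.

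**Figure D5:**
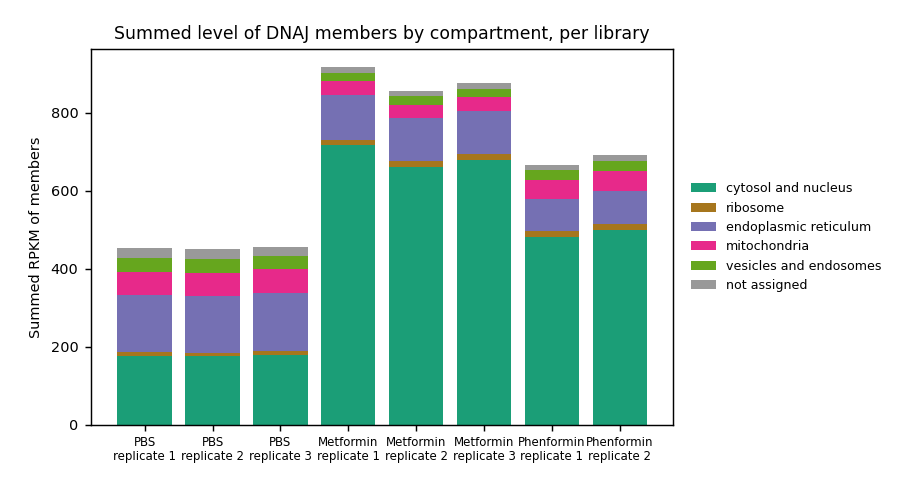
Summed RPKM of the members of each compartment, stacked, in each of the 8 libraries. The 1 member of cilia and flagella, at no more than 0.104 RPKM, is not drawn. The share of the cytosol and nucleus rises from between 39% and 39.5% with PBS to between 77.5% and 78.2% with metformin and 72.4% to 72.5% with phenformin.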

How the data were processed

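Samples were grouped by their labels. Reads had been mapped and counted by the authors in CLC Genomics Workbench, and the deposited values are RPKM for 57773 gene features. The submitters' processing notes give the build as GRCh37.p13. The sources used here do not state the annotation release or the use of strand. Each RPKM value is a whole number of reads times a step set by gene length and depth. Read totals were solved from these steps, and all values (100%) of the 25529 features above 0 were whole within 0.01 read, though a factor common to reads and length would go unseen.

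Tables were handled in Python 3.11.15 (numpy 2.4.6, pandas 2.3.3), plots drawn with matplotlib 3.10.9 and models fitted by limma 3.58.1 in R 4.3.3 (lmFit, eBayes with trend). The scale was log2(RPKM + 0.1), which understates changes of low genes. Metformin was compared with PBS over 6 libraries (at least 1 RPKM in at least 3), and phenformin with both in 1 fit of 8 (at least 1 RPKM in at least 2). Benjamini-Hochberg adjustment ran over all genes of a fit, with a limit of 0.05. The procedure was tested on simulated data, with independent libraries and a limited set of changed genes. That test did not cover a change of most genes or reads shared between libraries.

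Members, lists and locations were chosen with earlier results of these data known. Values in every library are given for members past limma with a change of at least 2-fold as measured or relative to the median gene, for the 5 highest with PBS and for members with opposite changes. Others are given by ranges, and DNAJC11, DNAJC17 and DNAJC27 were described after their values were seen. As alternatives, the pseudocount was 0.01 or 1, the filter was dropped or set to a mean of 5 RPKM, library medians were set equal (median-centring) or trimmed means were (30% trimmed per end), and eBayes ran without trend. The replicate number as a block, limma-voom on recovered reads, fits of other sets of libraries and fits without each library were also run. Chosen after seeing the data, a further run kept of PBS replicate 1 only its reads in excess of replicates 2 and 3. Promoters were taken from RefSeq (GRCh38.p14). Proteins were not analysed here, and 1 gene of a list is not reported here.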

Additional observations from a re-analysis of the deposited data

How the results depend on the processing

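Every alternative in which a member was tested kept its call for 26 of 29 members with metformin, 31 of 31 with phenformin and 22 of 25 in the contrast of the treatments. Those lost in at least 1 alternative were DNAJC13, DNAJC14 and DNAJB12 with metformin, and DNAJC16, DNAJC8 and DNAJC2 in the contrast. With a mean of at least 5 RPKM, which leaves fewer genes to test, 5622, 5352 and 5005 genes were called in the 3 comparisons in place of 9729, 9313 and 7923, and 13 members fell with phenformin in place of 22. With a library left out, 26 to 29 members were called with metformin, 31 to 32 with phenformin and 22 to 26 in the contrast. With PBS replicate 1 reduced, 27, 31 and 24 were called, and without it 26, 31 and 24.

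Median-centring and trimmed mean scaling turned the direction of small changes. With metformin they gave 0.02 and 0.03 for DNAJC24, 0.01 and 0.01 for DNAJC13, 0.02 and 0.03 for DNAJC14, 0.03 and 0.04 for DNAJB12, 0.10 and 0.11 for DNAJC27, 0.15 and 0.15 for DNAJB5 and 0.17 and 0.17 for DNAJC7. With phenformin they gave 0.02 and 0.03 for both DNAJB12 and DNAJC1, and in the contrast -0.08 and -0.08 for DNAJA3 and -0.02 and -0.02 for DNAJB12. Leaving out a library turned the direction of DNAJB5 (-0.08 to 0.03) and DNAJC7 (-0.04 to 0.00) with metformin, of DNAJC24 (-0.06 to 0.11) with phenformin, and of DNAJA3 (-0.02 to 0.10) and DNAJC25 (-0.20 to 0.07) in the contrast. None of the changes turned by leaving out a library passed limma with all libraries. Of those turned by the scalings, DNAJC13, DNAJC14 and DNAJB12 had passed with metformin (limma adjusted p = 0.0111, 0.0123 and 0.0439), and the others had not.

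Libraries with the same replicate number did not deviate together (correlations from -0.0749 to 0.0344 across genes), so the numbers were not taken as pairs. With the replicate block, 28, 31 and 23 members and 9582, 8906 and 7312 genes were called.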

Other observations

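Of 67 features with a DNAJ symbol, 24 lay outside the naming rule, being pseudogenes, antisense genes, a read-through gene and 2 members whose number is followed by a letter. DNAJC5B and DNAJC5G, the beta and gamma cysteine string proteins, stayed at or under 0.0861 and 0.15 RPKM in every library. DNAJC3-AS1 was the only one of the 24 that could be tested, with 6.18, 6.07 and 6.92 RPKM with PBS, 1.32, 1.38 and 1.22 with metformin and 1.57 and 1.8 with phenformin. DNAJC9-AS1, DNAJC27-AS1 and DNAJB8-AS1 stayed at or under 0.197 RPKM. DNAJC25-GNG10 ranged from 0.0899 to 0.348 RPKM over all libraries. The pseudogenes of DNAJA1, DNAJB1, DNAJC8 and DNAJC19 were listed at 0 in every library. Reads of a member that also match its pseudogenes may have been assigned or left out by the authors' mapping, and the effect on the member's level was not tested.

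HSPA6, a strictly inducible HSP70 gene, was at 0.0253, 0 and 0 RPKM with PBS, 3.1, 2.07 and 1.95 with metformin and 0.809 and 0.698 with phenformin. Among the untested members, DNAJC6 was at 0.75 to 0.837 RPKM with PBS, against 0.565 to 0.61 with metformin and 0.208 to 0.255 with phenformin. It was too low to test, so no call is made on these levels.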
